A study of Mus musculus with 18 samples.

Results

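Actin cytoskeleton genes were followed in mouse bone marrow-derived macrophages that were given lipopolysaccharide (LPS), reconstituted high-density lipoprotein (rHDL) and cholesterol. The set holds 38 named genes of the 24059 gene symbols in the count tables: the cytoplasmic actins, proteins that bind actin monomers, the branching complex, capping and severing proteins, crosslinkers, contractile proteins, proteins that tie filaments to the membrane and to adhesions, and vimentin. All 38 symbols were found in both tables. Members were matched by symbol only, without use of any measured value, but the set was chosen with earlier results of these data known. The cells came from femur and tibia marrow of C57BL/6J mice, were differentiated for 7 days in medium conditioned by L929 cells, and are a primary culture rather than a clone. The groups, of 3 libraries each, were cells given LPS and untreated cells (first table), and, all under LPS, cells loaded with cholesterol and then given rHDL, loaded cells without rHDL, unloaded cells given rHDL, and unloaded cells given LPS alone (second table). The rHDL was CSL111, made from APOA1 and soybean phosphatidylcholine at 1 to 150. It was added on day 8 for 20 h and washed off before LPS, and loading used liposomes of POPC and cholesterol. No group received rHDL without LPS. Neither the dose of LPS nor how long it acted is stated in the labels.

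Actin filaments grow from monomers that profilin delivers, branch at the Arp2/3 complex, and are turned over by cofilin and its partners. Capping proteins end their growth, crosslinkers bundle them, and linker proteins couple them to the plasma membrane and to integrin adhesions. In macrophages this machinery drives ruffling, migration, phagocytosis and the change of shape after exposure to bacterial products. Many of its genes are known targets of serum response factor, which binds the CArG box.

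The members took 3.13% to 3.48% of the 11450243 to 16835472 counts of a first-table library, and 2.95% to 3.70% of the 9464916 to 15607889 counts of a second-table library. Of the members, 27 shared no exon base with another row of the tables. The other 11 were counted in part, because reads on shared bases were left out: Flna on 0.311% of its exon bases, Arpc4 on 5.24%, Actr3 on 6.99%, Gsn on 10.1%, Capzb on 15.9%, Tpm3 on 17.6%, Lcp1 on 21.4%, Zyx on 30.5%, Capg on 38.9%, Tmsb10 on 50.5% and Actn4 on 91.3%. Counts were high enough to test 36 members of the first table and 34 of the second. Gsn (gelsolin, a severing protein) and Flna (filamin A, a crosslinker) were tested in neither, and Actr3 and Tmsb10 only in the first. Many actin genes have processed pseudogenes, and how reads matching several places were treated is not stated, so part of a member's reads may be missing. The summed level of the 8 macrophage markers found was at least 11589 CPM (counts scaled to a common library size by the trimmed mean of M values, TMM) in every library, although Itgam was listed at 0 in all of them. Lymphoid markers summed to at most 0.419 CPM. Neutrophil markers summed to 83.8 to 105 CPM in the first table and 3.24 to 16.0 CPM in the second. Mast, erythroid and megakaryocyte markers summed to 62.0 to 98.8 CPM in LPS cells and 14.3 to 30.4 CPM in untreated cells of the first table. Of the 2 tested there, 1 was called, Pf4, higher by a log2 of 1.97, and their part in the members' changes was not tested. Stromal markers summed to at most 11.5 CPM, mostly Tagln, except in replicate 3 of the loaded cells without rHDL, where they summed to 34.6 CPM with collagen RNA (Col3a1 at 12.3 CPM).

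The promoters of the members were read from RefSeq sequences of GRCm38.p6, from 250 bases before to 50 after each start, and 36 of 38 members had one (Actb and Marcks did not). The CArG box, searched under that name on both strands (its pattern reads the same on both), was present for 4 of these 36 genes (11.1%), against 488 of 27025 genes with a promoter (1.81%). It was present for 4 of 9 genes of the serum response factor list, which was named for this factor. The 4 members are shown because they share the box, so that their values can be read side by side. Each line gives 60 bases upstream of a start in the direction of transcription, with the box in capitals.
Actg1, chr11:120348551-120348610, minus strand: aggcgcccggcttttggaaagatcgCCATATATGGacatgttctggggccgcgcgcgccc
Arpc4, chr6:113377863-113377922, plus strand: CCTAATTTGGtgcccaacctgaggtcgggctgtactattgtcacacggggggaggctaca
Myl6, chr10:128493025-128493084, minus strand: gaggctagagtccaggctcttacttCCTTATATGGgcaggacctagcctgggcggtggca
Vcl, chr14:20929148-20929207, plus strand: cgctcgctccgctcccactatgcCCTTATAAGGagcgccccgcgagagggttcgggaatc
The boxes lay at -90 to -81 from the start for Actg1, -250 to -241 for Arpc4, -50 to -41 for Myl6 and -227 to -218 for Vcl. The Myl6 window lies upstream of an internal RefSeq start and inside the deposited Myl6 row. These 4 genes did not move as a group: after LPS, Vcl, Actg1 and Myl6 were higher by a log2 of 0.91, 0.49 and 0.38 while Arpc4 had 0.10 and was not called. With rHDL, Vcl was higher by 0.35, Actg1 was lower at -0.22, and Myl6 (0.24) and Arpc4 (-0.07) were not called. Under scaling by library totals only, Actg1 (-0.22) and Myl6 (-0.34) turned lower after LPS, and none of the 4 genes was called higher.

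The first comparison, LPS cells against untreated cells, covers the response to LPS itself. The fascin, zyxin and MARCKS-like genes rose most, both cytoplasmic actins rose, and few members fell. At a Benjamini-Hochberg adjusted p under 0.05 in edgeR's quasi-likelihood test, 25 of 36 members were higher and 3 lower (Actn4, Myh9 and Arpc1a), against 35.3% of all genes higher and 37.6% lower (72.9% in either direction). The median log2 change was 0.50 for the members and -0.05 for all genes. The libraries of the 2 groups did not overlap for 27 members, against 76.1% of all genes. Scaling decided many of these directions. Under library totals only, 11 members were higher and 17 lower, the member median was -0.22 against -0.77 for all genes, and 18.7% of all calls were higher against 48.4% under TMM. In this table the TMM factors spanned 0.766 to 1.29. The 11 members higher under both scalings were Fscn1, Marcksl1, Zyx, Marcks, Tpm4, Actn1, Lcp1, Ezr, Msn, Actb and Actr2.

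**Figure D1:**
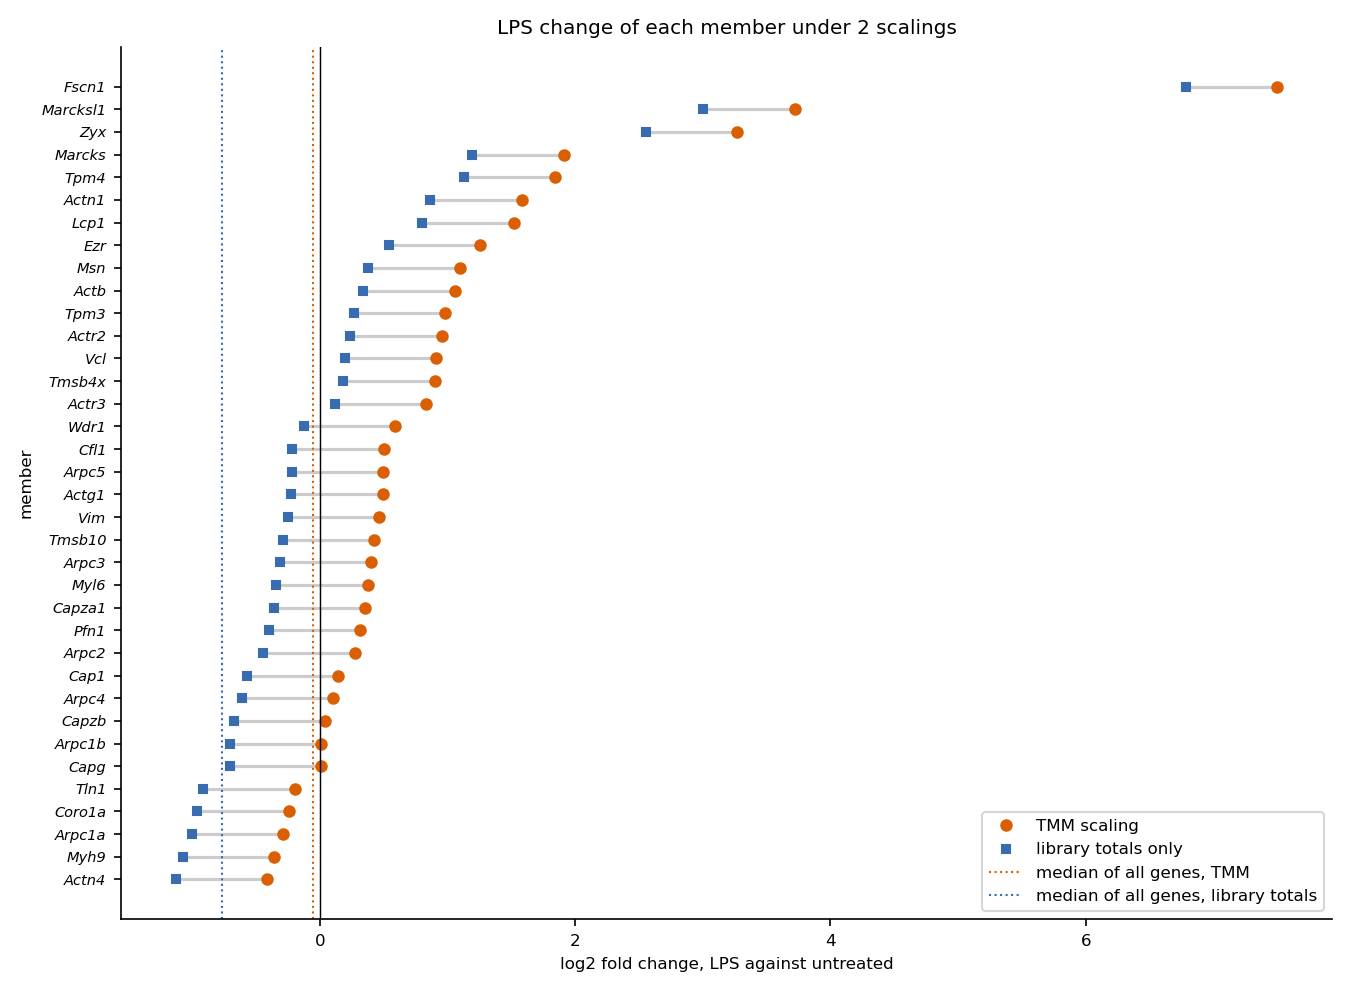
Log2 fold change of LPS against untreated cells (horizontal axis) for each of the 36 members tested (rows), under TMM scaling (orange circles) and library totals only (blue squares), with dotted lines at the median of all genes under each. Library totals move all members to the left by about the same amount, and 10 members called higher under TMM, such as Vim, Pfn1 and Arpc2, then lie below 0.

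The actins themselves make the filament. Actb (mm10 chromosome 5, 142903116 to 142906724, minus strand) had 8338, 8919 and 10776 CPM in LPS cells, against 4614, 4387 and 4489 CPM in untreated cells. Every LPS library lay above every untreated one, with a log2 change of 1.06 (SE 0.11, adjusted p = 4.49e-06) that stayed positive at 0.34 under library totals. Actg1, the second cytoplasmic actin (chromosome 11, 120345690 to 120348484, minus strand), had 563, 588 and 656 CPM in LPS cells, against 424, 423 and 437 CPM in untreated cells. It changed by a log2 of 0.49 (SE 0.08, adjusted p = 1.71e-04), and -0.22 under library totals. The ratio of Actb to Actg1 counts within a library, which no scaling changes, was 15.5 ± 0.84 in LPS cells and 10.5 ± 0.32 in untreated cells (SD, n = 3). The ratios were chosen after the values were seen, and the groups did not overlap (exact permutation test, 2-sided, p = 0.1, the smallest that 3 against 3 libraries can give).

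Among the proteins that hold or recycle monomers, Tmsb4x (thymosin beta 4, which sequesters monomers) had 4832, 7679 and 6537 CPM in LPS cells, against 3344, 3340 and 3525 CPM in untreated cells. This was a log2 change of 0.90 (SE 0.14, adjusted p = 1.74e-04), but Tmsb4x was not called higher under library totals. LPS replicate 1 was the lowest of its group for this gene, as it was for Cfl1, Myl6 and Pfn1. Cfl1 (cofilin, which severs filaments) had 963, 1344 and 1127 CPM in LPS cells, against 822, 797 and 809 CPM in untreated cells, a log2 change of 0.50 that was -0.22 under library totals. Wdr1, which speeds disassembly by cofilin, had a log2 change of 0.59 and -0.13 under library totals. Pfn1 (profilin) had 0.31, and Cap1, which helps recharge monomers, had 0.14 and was not called. Tmsb10, with 1.09 to 2.17 CPM in LPS cells and 1.11 to 1.496 CPM in untreated cells, was not called.

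The Arp2/3 complex nucleates branches and is built from subunits that are thought to be present in equal number. Its genes did not change by one amount. Actr2 (Arp2) had 1557, 1586 and 1720 CPM in LPS cells, against 855, 833 and 820 CPM in untreated cells, a log2 change of 0.96 (SE 0.08, adjusted p = 6.99e-07). Actr3 (Arp3), read on few bases at 2.44 to 3.26 CPM in LPS cells and 1.496 to 1.58 CPM in untreated cells, had 0.83. Under library totals Actr3 was not called higher. Arpc5 had 0.50, Arpc3 0.40 and Arpc2 0.27, and these turned negative under library totals (-0.22, -0.32 and -0.45). Arpc1a had 67.0, 64.7 and 61.8 CPM in LPS cells, against 77.7, 80.8 and 77.7 CPM in untreated cells, and was lower under both scalings (-0.29 and -1.004). Its close relative Arpc1b (0.01) was not called. The ratio of Arpc1b to Arpc1a counts was 16.1 ± 0.79 in LPS cells and 13.1 ± 0.45 in untreated cells (SD, n = 3; exact permutation p = 0.1).

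Of the capping members, Capza1, a subunit of capping protein, had a log2 change of 0.36 (-0.36 under library totals), and Capzb and Capg were not called.

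Crosslinkers and bundlers held both the largest change and a fall. Fscn1 (fascin, which bundles filaments in filopodia and in mature dendritic cells; chromosome 5, 142960355 to 142973189, plus strand) had 123.1, 122.8 and 124.5 CPM in LPS cells, against 0.602, 0.792 and 0.612 CPM in untreated cells. The LPS libraries were nearly equal and far above the untreated ones, with a log2 change of 7.50 (SE 0.12, adjusted p = 7.7e-12). Summed dendritic markers had 574 to 738 CPM in LPS cells and 355 to 506 CPM in untreated cells, of which 1 of 6 genes was tested, and their part in the result was not tested. Actn1 (alpha-actinin 1) had 1364, 1073 and 1127 CPM in LPS cells, against 404, 413 and 375 CPM in untreated cells. The groups did not overlap, with a log2 change of 1.58 (SE 0.10, adjusted p = 1.01e-07). Actn4, the other alpha-actinin of non-muscle cells, went the opposite way, with 379, 323 and 337 CPM in LPS cells, against 474, 461 and 448 CPM in untreated cells, a log2 change of -0.41 (SE 0.08, adjusted p = 7.27e-04). Lcp1 (L-plastin, a leukocyte bundler) had 1.52, and Coro1a (coronin 1A, -0.25) was not called.

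The contractile members split as well. Tpm4 (tropomyosin 4, which coats filaments) had 1388, 1439 and 1556 CPM in LPS cells, against 406, 389 and 427 CPM in untreated cells. Its log2 change was 1.84 (SE 0.08, adjusted p = 4.83e-09). Tpm3 had 0.98 on low counts and was not called higher under library totals. Myh9, the heavy chain of non-muscle myosin IIA, had 922, 739 and 811 CPM in LPS cells, against 1103, 1083 and 979 CPM in untreated cells, and fell by 0.36 (adjusted p = 5.64e-03). Myl6, a myosin light chain, was at the threshold: its log2 change of 0.38 had an adjusted p of 0.0473, the groups overlapped, and the adjusted p was 0.0696 to 0.159 without LPS replicate 2 or 3 or any untreated library.

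Linkers to membrane and adhesions rose in 6 of 7 cases, all 6 also positive under library totals, where Vcl was no longer called higher. Marcksl1, a membrane-bound actin binder of the MARCKS family, had 2300, 2836 and 2999 CPM in LPS cells, against 196, 183 and 238 CPM in untreated cells. Its log2 change was 3.72 (SE 0.14, adjusted p = 1.2e-09). Marcks had 2151, 2213 and 2308 CPM in LPS cells, against 578, 562 and 634 CPM in untreated cells, a log2 change of 1.91 (SE 0.08). Zyx (zyxin, found at focal adhesions), read on part of its exons, had 6.40, 7.07 and 7.28 CPM in LPS cells, against 0.695, 0.652 and 0.816 CPM in untreated cells. The LPS libraries were far higher, by a log2 of 3.27 (SE 0.20, adjusted p = 7.36e-08). Of the proteins that link filaments to the membrane, Ezr (ezrin) had 1.26 and Msn (moesin) 1.09. Vcl (vinculin, an adhesion protein) had 0.91 and Tln1 (talin 1, which activates integrins) was not called at -0.20. Vim, which forms intermediate filaments and not actin filaments, had 0.46, and -0.25 under library totals.

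Levels between genes were compared per kilobase of exon that no other row shares. Tmsb4x was highest of the members in the LPS cells of the first table at 9477 CPM per kb, followed by Actb at 4947 CPM per kb and Vim at 2027 CPM per kb (SD 2138, 674 and 126, n = 3). Marcksl1 came next at 1694 CPM per kb (SD 229).

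**Figure D2:**
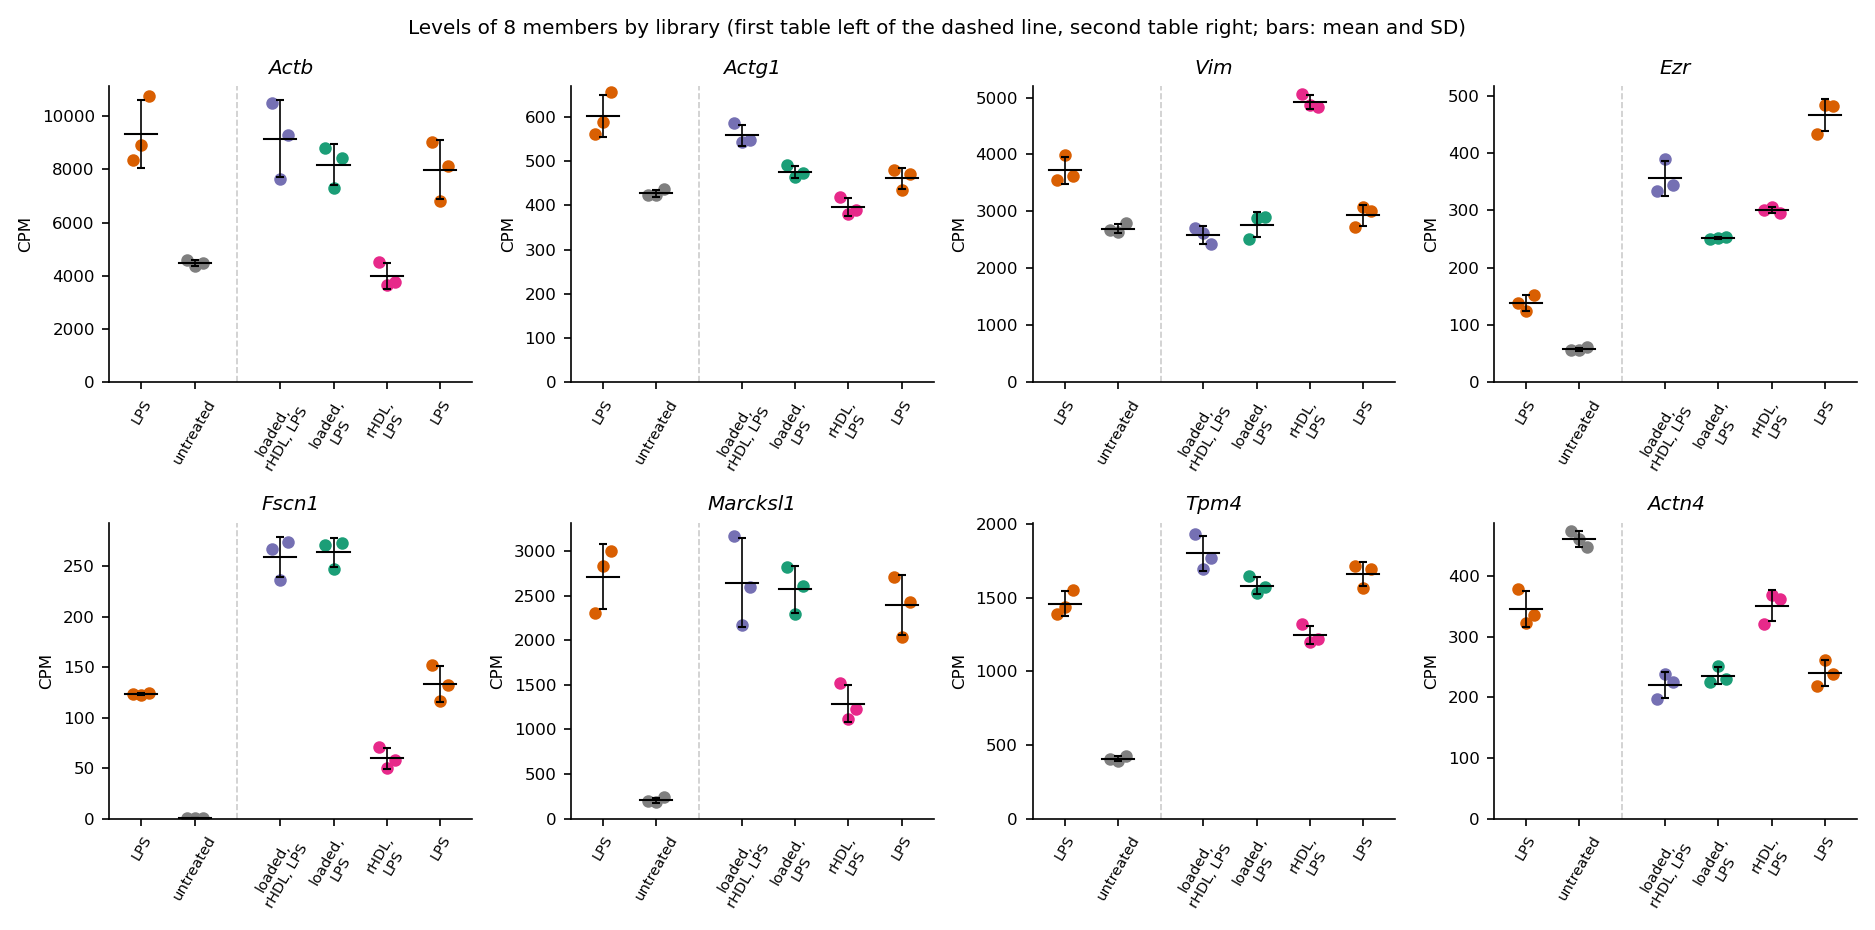
CPM of 8 members (vertical axes, from 0) in each of 18 libraries (points), by group, with the mean (bar) and SD (n = 3); groups of the first table lie left of the dashed line. In the second table the unloaded cells given rHDL stand apart from the other 3 groups in every panel but Ezr. Actb at 3651 to 4537 CPM is below all of those groups and Vim at 4830 to 5070 CPM above all of them. Ezr at 295 to 306 CPM lies between loaded cells without rHDL (250 to 254 CPM) and loaded rHDL cells (333 to 391 CPM).

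Next, rHDL against none under LPS, in unloaded cells, asks how earlier exposure to the particle changes the levels measured after LPS. Actb, Fscn1, Marcksl1, Zyx and Ezr fell, and Vim, Actn4, Vcl and Actn1 rose. Of 34 members, 14 were lower and 4 higher, against 18.4% of all genes lower and 18.1% higher (36.5% in either direction). The median log2 change was -0.13 for the members and 0.03 for all genes. Libraries of the groups did not overlap for 21 members, against 51.4% of all genes. Under library totals 9 members were lower and 7 higher, with a median of -0.01 for the members and 0.14 for all genes and 66.3% of all calls higher against 49.5% under TMM, and no called member changed sign.

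Actb had 4537, 3651 and 3776 CPM in rHDL cells, against 9019, 6826 and 8145 CPM in cells given LPS alone. The highest rHDL library lay well below the lowest library of LPS alone, with a log2 change of -1.004 (SE 0.13, adjusted p = 3.13e-05), or -0.89 under library totals. Actg1 had 419, 381 and 389 CPM in rHDL cells, against 479, 434 and 471 CPM in cells given LPS alone, a log2 change of -0.22 (SE 0.06, adjusted p = 0.0158). This call of Actg1 ended without 1 library (adjusted p 0.0634 to 0.0741 without LPS-alone replicate 1 or 3 or rHDL replicate 2 or 3) and under library totals. The ratio of Actb to Actg1 was 10.0 ± 0.68 in rHDL cells and 17.3 ± 1.55 in cells given LPS alone (SD, n = 3; exact permutation p = 0.1, the smallest possible). Actb took 0.390% to 0.460% of all counts in rHDL cells, against 0.677% to 0.841% in cells given LPS alone.

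Fscn1 had 71.2, 50.6 and 58.4 CPM in rHDL cells, against 151.9, 116.6 and 132.4 CPM in cells given LPS alone. Its log2 change was -1.15 (SE 0.12, adjusted p = 4.25e-06), and the groups did not overlap. The ratio of Fscn1 to Actb was 0.0150 ± 0.0010 in rHDL cells and 0.0167 ± 0.00042 in cells given LPS alone (SD, n = 3; exact permutation p = 0.1). Marcksl1 had 1519, 1116 and 1229 CPM in rHDL cells, against 2709, 2041 and 2423 CPM in cells given LPS alone, a log2 change of -0.89 (SE 0.15, adjusted p = 2.42e-04). Ezr had 301, 306 and 295 CPM in rHDL cells, against 434, 484 and 483 CPM in cells given LPS alone, a log2 change of -0.64 (SE 0.07, adjusted p = 7.58e-06). Zyx, at 2.41 to 3.10 CPM in rHDL cells and 3.45 to 5.01 CPM in cells given LPS alone, had -0.65 (adjusted p = 0.0228). The Zyx call ended without replicate 1 or 3 of LPS alone or replicate 2 or 3 of rHDL (adjusted p 0.0655 to 0.108).

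The other 9 members that fell had log2 changes of -0.21 to -0.45: Tmsb4x, Actr2, Tpm4, Lcp1, Myh9, Wdr1, Actg1, Arpc5 and Marcks. Of the branching complex only Actr2 (-0.41) and Arpc5 (-0.22) were called among 7 genes tested. Tpm4 had 1319, 1203 and 1222 CPM in rHDL cells, against 1717, 1565 and 1694 CPM in cells given LPS alone (log2 change -0.41, adjusted p = 3.35e-04). Without rHDL replicate 2 the count of lower members was 9, and Actg1, Tmsb4x, Arpc5, Zyx and Marcks lost their calls.

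Vim rose most. It had 5070, 4872 and 4830 CPM in rHDL cells, against 2721, 3074 and 3003 CPM in cells given LPS alone. Its log2 change was 0.75 (SE 0.08, adjusted p = 3.85e-06), and the ratio of Vim to Actb was 1.24 ± 0.11 in rHDL cells and 0.374 ± 0.075 in cells given LPS alone (exact permutation p = 0.1). Actn4 had 321, 368 and 363 CPM in rHDL cells, against 219, 262 and 239 CPM in cells given LPS alone, a log2 change of 0.55 (SE 0.09, adjusted p = 2.2e-04). Vcl (0.35, adjusted p = 0.0424) and Actn1 (0.27, adjusted p = 0.0352) were called by little. The Vcl groups overlapped, and the calls of Vcl, of Actn1 or of both ended without replicate 1, 2 or 3 of LPS alone or replicate 2 or 3 of rHDL, which left 2 or 3 higher members. The authors' deposited table for this comparison lists 1609 genes, 5 of them members, with log2 changes of -1.16 for Fscn1, -1.015 for Actb, -0.90 for Marcksl1, 0.54 for Actn4 and 0.74 for Vim. It holds only genes that passed the authors' own cut (largest adjusted p 0.0497), which need not be the threshold used here. Its count of members is therefore not a like count, and Ezr is not among them.

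Markers of macrophages moved with these genes: they summed to 11589 to 14102 CPM in rHDL cells and 20987 to 22873 CPM in cells given LPS alone, with 5 of 7 tested genes lower and Cd68 higher. Neutrophil markers summed to 3.24 to 5.15 CPM in rHDL cells and 13.1 to 16.0 CPM in cells given LPS alone. Stromal markers summed to 7.02 to 9.33 CPM in rHDL cells and 8.30 to 11.2 CPM in cells given LPS alone. Dendritic markers summed to 100 to 116 CPM in rHDL cells and 68.6 to 92.9 CPM in cells given LPS alone, with 0 of 2 tested genes called. Mast, erythroid and megakaryocyte markers summed to 32.4 to 43.4 CPM in rHDL cells and 54.5 to 61.4 CPM in cells given LPS alone, with both tested genes lower (Ppbp -2.52 and Pf4 -0.59). Their part in the members' changes was not tested, and in bulk RNA fewer cells of a type and less RNA per cell cannot be told apart.

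The LPS and rHDL comparisons share no library, so their changes were not measured against the same LPS cells. Some levels differed between cells given LPS alone in the first and second tables, which were scaled apart. Ezr had 124 to 152 CPM in the first and 434 to 484 CPM in the second, and Coro1a 272 to 396 CPM and 96.1 to 118 CPM. Others overlapped, such as Fscn1 with 122.8 to 124.5 CPM in the first and 116.6 to 151.9 CPM in the second. Of the 24 members that rose with LPS in the first table and were tested in both, 13 (54.2%) fell with rHDL and 3 rose (Vim, Vcl and Actn1), against 30.8% of the 3330 such genes overall that fell and 15.2% that rose. The 13 are also 13 of the 14 members that fell with rHDL, the other being Myh9. Of the 3 members that fell with LPS, Actn4 rose with rHDL, Myh9 fell and Arpc1a was not called, and of all 3110 such genes 22.4% rose and 9.97% fell. None of the 7 members not called with LPS was called with rHDL, against 17.3% of 2325 such genes that rose and 11.4% that fell. These counts rest on TMM scaling. Under library totals, 7 of the 11 members that rose with LPS (63.6%) fell with rHDL, against 40.4% of 1505 such genes, and 5 of the 17 that fell with LPS (29.4%) rose with rHDL, against 31.8% of 5989.

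**Figure D3:**
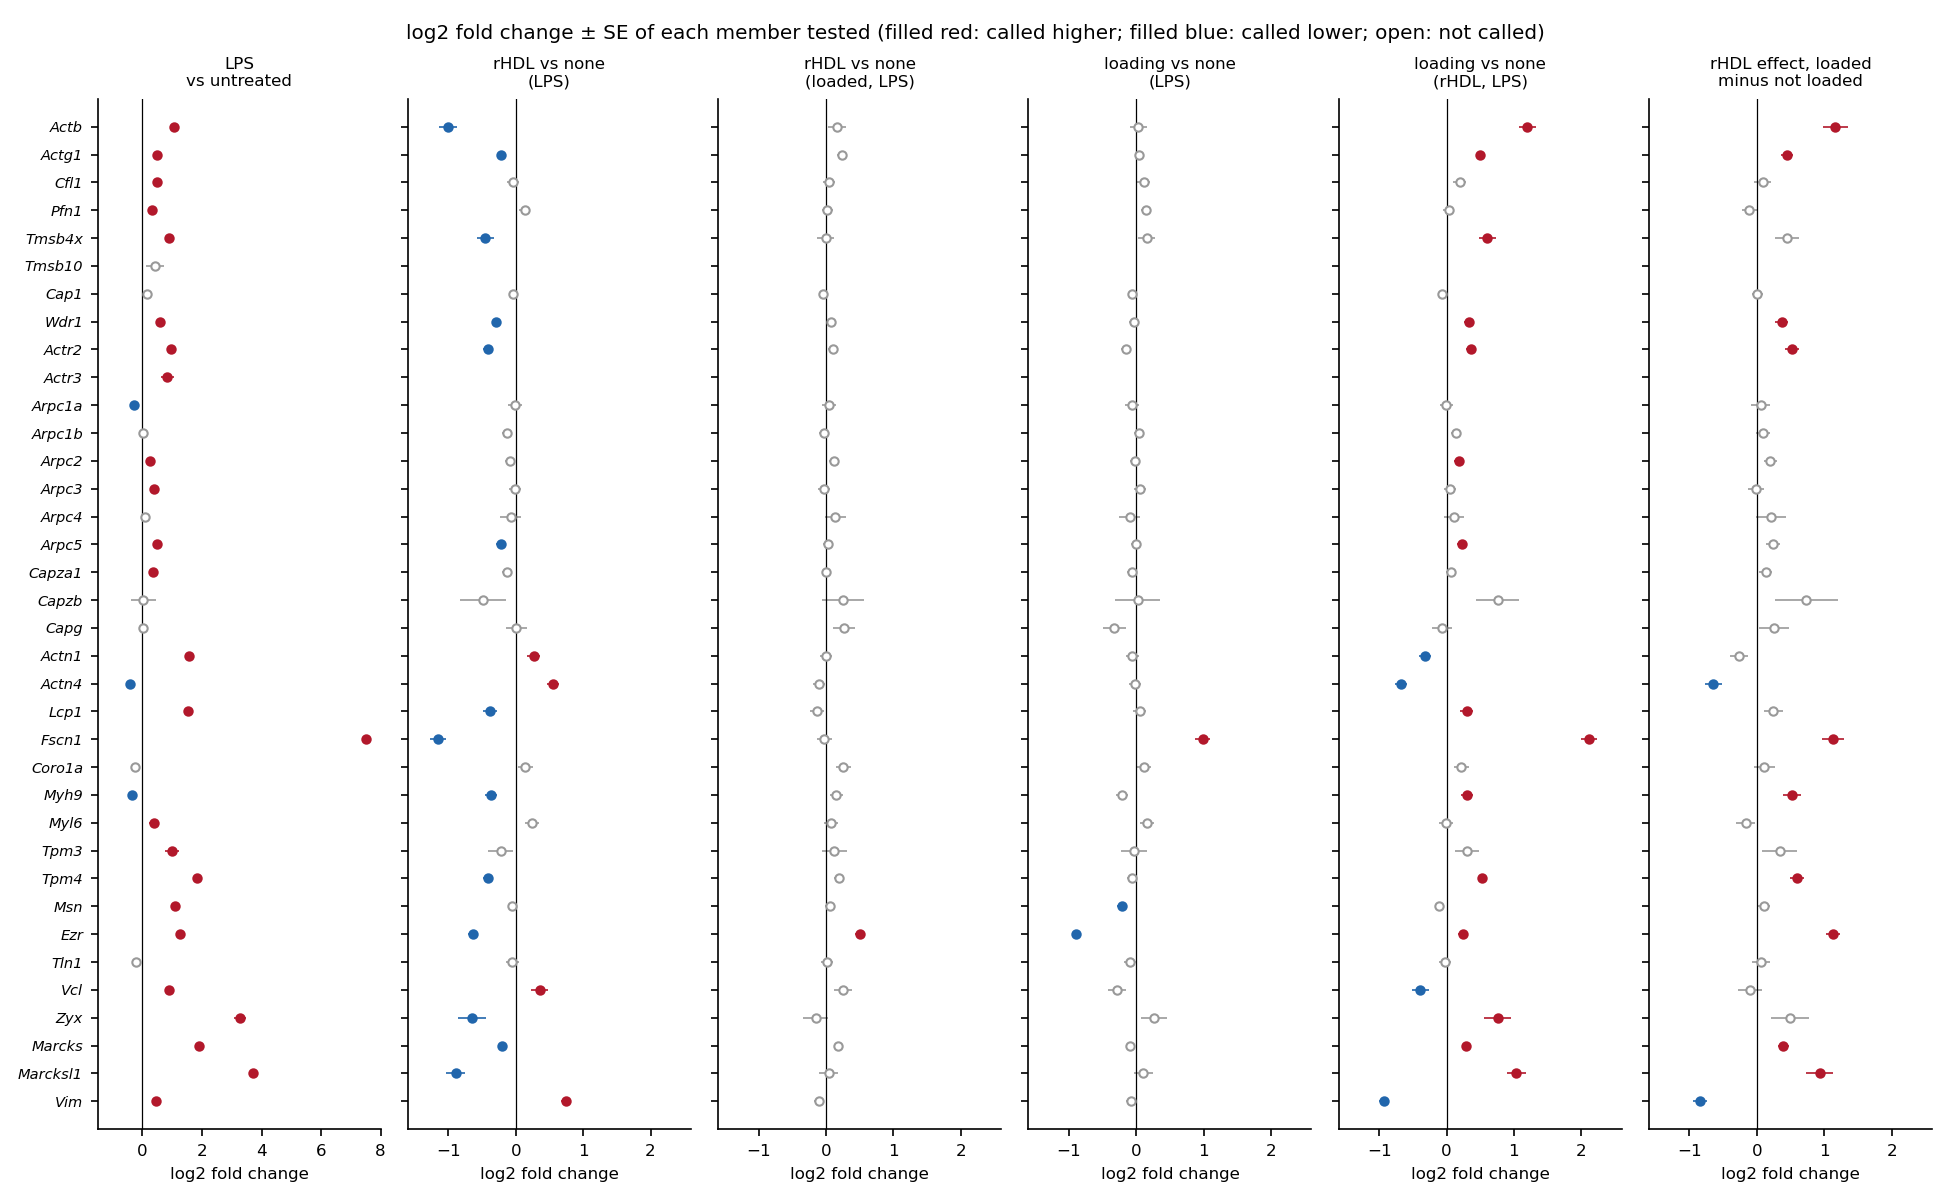
Log2 fold change ± SE (horizontal axes) of each member tested (rows), one panel per comparison, with filled red points for members called higher, filled blue for lower and open points for no call at adjusted p under 0.05. Red points fill the LPS panel under TMM scaling (25 of 36, though 11 under library totals), blue points lead in the rHDL panel (14 of 34), and a single red point, Ezr, is left in the panel for rHDL after loading.

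After loading, rHDL against none under LPS asks whether loading changes the response to rHDL. Ezr was the 1 member called. It had 333, 391 and 345 CPM in loaded rHDL cells, against 249.9, 252.3 and 254.2 CPM in loaded cells without rHDL, a log2 change of 0.50 (SE 0.07, adjusted p = 2.85e-03). This is 1 of 34 members higher and 0 lower, against 0.424% of all genes higher and 0.591% lower (1.02% in either direction). In this comparison 5 members had an unadjusted p under 0.05, and DESeq2 called 3 members higher (Actg1, Ezr and Marcks) and 0 lower. Without 1 library at a time, 10 to 68 genes of all were higher and 20 to 55 lower, against 38 and 53 with all libraries, and Ezr was called each time (adjusted p 1.97e-03 to 0.0241). The fewest, 10 higher and 20 lower, were left without replicate 2 of the loaded cells given no rHDL. Groups did not overlap for 7 members, against 15.3% of all genes. Actb had 10518, 7645 and 9314 CPM in loaded rHDL cells, against 8819, 7315 and 8415 CPM in loaded cells without rHDL, and these overlapped (log2 change 0.16, SE 0.13, adjusted p = 0.682). Fscn1 likewise overlapped, at 267, 237 and 275 CPM in loaded rHDL cells and 271, 248 and 273 CPM in loaded cells without rHDL. The authors' deposited table for this comparison lists 47 genes and 0 members, and it too holds only genes that passed their cut (largest adjusted p 0.0475). Across all genes, library totals gave 27.2% of calls higher against 41.8% under TMM.

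The difference between the rHDL effects, tested as an interaction (after loading minus without), was called for 12 of 34 members, 10 higher and 2 lower. Of all genes, 16.0% were higher and 14.2% lower (30.2% in either direction), near the 35.3% of members called. The member median was 0.22 and the median of all genes -0.03. Under library totals the counts were 8 higher and 4 lower, with 32.4% of all calls higher against 53% under TMM and a median of 0.05 for the members and -0.20 for all genes; Wdr1 and Myh9 then lost their calls and no called member changed sign. For Actb the rHDL effect was 0.16 after loading and -1.004 without, a difference of 1.17 (SE 0.18, adjusted p = 2.95e-04). For Fscn1 it was -0.03 after loading and -1.15 without, a difference of 1.13 (SE 0.16, adjusted p = 1.79e-04). For Ezr the sign turned, with 0.50 after loading and -0.64 without (difference 1.13, SE 0.10, adjusted p = 2.79e-06). Differences for Marcksl1 (0.93), Tpm4 (0.60), Myh9 (0.52), Actr2 (0.52), Actg1 (0.45), Marcks (0.39) and Wdr1 (0.37) were also positive. For Vim the rHDL effect was -0.10 after loading and 0.75 without, a difference of -0.85 (SE 0.11, adjusted p = 5.98e-05), and for Actn4 the difference was -0.65 (SE 0.13, adjusted p = 1.43e-03).

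Loading against none under LPS, without rHDL, asks what loading itself does in cells under LPS. No group is labelled as given POPC liposomes without cholesterol, so effects of the 2 lipids cannot be told apart. Few members were called: Fscn1 rose, and Ezr and Msn fell (1 of 34 higher and 2 lower, against 3.99% of all genes higher and 4.57% lower, 8.57% in either direction). Without 1 library at a time, 158 to 245 genes of all were higher and 189 to 349 lower, against 358 and 410 with all libraries. Groups did not overlap for 12 members, against 32.9% of all genes. Fscn1 had 271, 248 and 273 CPM in loaded cells, against 151.9, 116.6 and 132.4 CPM in unloaded cells, a log2 change of 0.98 (SE 0.12, adjusted p = 1.22e-04). The ratio of Fscn1 to Actb was 0.0324 ± 0.0016 in loaded cells and 0.0167 ± 0.00042 in unloaded cells (exact permutation p = 0.1), since Actb had 0.03 and was not called. Ezr had 249.9, 252.3 and 254.2 CPM in loaded cells, against 434, 484 and 483 CPM in unloaded cells, a log2 change of -0.89 (SE 0.07, adjusted p = 2.3e-06). Msn, its relative, had -0.22 (adjusted p = 0.0477), and its call ended without any 1 of the 6 libraries (adjusted p 0.0626 to 0.167) and under library totals. Loaded replicate 3, the library with collagen RNA, also held the highest summed dendritic markers, 158 CPM, against 75.8 CPM in the lowest loaded library and 68.6 to 92.9 CPM in unloaded cells. Without it Fscn1 had 0.96 and Ezr -0.89, both still called. Across all genes, library totals gave 71.1% of calls higher against 46.6% under TMM.

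Loading against none in rHDL cells shares libraries with the comparisons above. Actin and fascin genes were higher with loading and Vim was lower: 15 of 34 members higher and 4 lower, against 18.5% of all genes higher and 17.1% lower (35.6% in either direction), with a median of 0.21 for the members and -0.01 for all genes. Groups did not overlap for 19 members, against 43.1% of all genes. Under library totals 10 members were higher and 5 lower, with 39.4% of all calls higher against 51.9% under TMM, and no called member changed sign. The member median was then 0.11, and it was also 0.11 under TMM without loaded rHDL replicate 1. Actb had 10518, 7645 and 9314 CPM in loaded rHDL cells, against 4537, 3651 and 3776 CPM in unloaded rHDL cells, a log2 change of 1.20 (SE 0.13, adjusted p = 6.08e-06). Fscn1 had 267, 237 and 275 CPM in loaded rHDL cells, against 71.2, 50.6 and 58.4 CPM in unloaded rHDL cells, a log2 change of 2.11 (SE 0.12, adjusted p = 1.42e-08). Marcksl1 (1.04), Zyx (0.76), Tmsb4x (0.60) and Tpm4 (0.53) followed. Actg1 had 0.50, and the other 8 higher members had changes of 0.18 to 0.37. Vim had 2711, 2628 and 2419 CPM in loaded rHDL cells, against 5070, 4872 and 4830 CPM in unloaded rHDL cells, a log2 change of -0.93 (SE 0.08, adjusted p = 4.83e-07). Actn4 (-0.67), Vcl (-0.39) and Actn1 (-0.32) were also lower. Macrophage markers summed to 18081 to 22105 CPM in loaded rHDL cells and 11589 to 14102 CPM in unloaded rHDL cells. Mast, erythroid and megakaryocyte markers summed to 61.4 to 102 CPM in loaded rHDL cells and 32.4 to 43.4 CPM in unloaded rHDL cells, and neutrophil markers to 6.05 to 8.75 CPM in loaded rHDL cells and 3.24 to 5.15 CPM in unloaded rHDL cells. The sum of dendritic markers went the other way, with 72.8 to 89.7 CPM in loaded rHDL cells and 100 to 116 CPM in unloaded rHDL cells. Of the 2 dendritic markers tested, however, 1 was called higher with loading and 0 lower (log2 changes of -0.42 and 1.31). Their part was not tested.

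**Figure D4:**
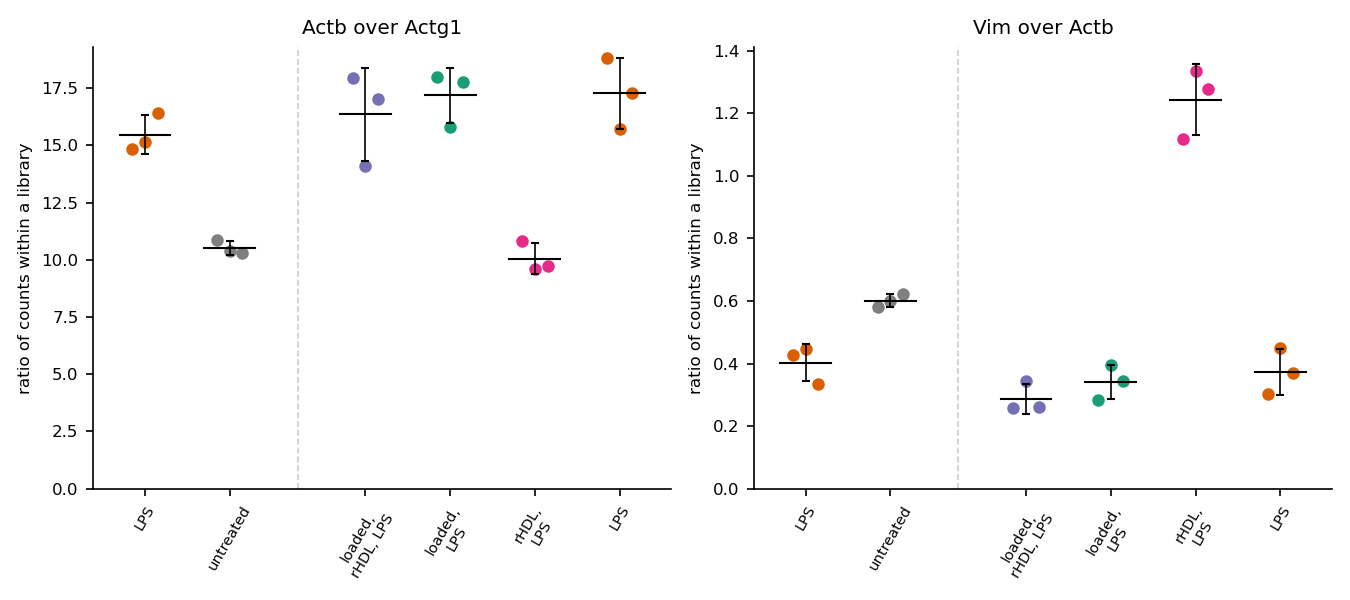
Ratio of Actb to Actg1 counts (left) and of Vim to Actb counts (right) within each of 18 libraries (points), with the mean (bar) and SD (n = 3) per group; both axes start at 0. Within the second table, unloaded cells given rHDL have an Actb to Actg1 ratio of 9.58 to 10.8, below the other 9 libraries (at least 14.1), and a Vim to Actb ratio of 1.12 to 1.33, above the other 9 (at most 0.450).

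Other genes of the cytoskeleton, from lists of related genes, are given beside the shares of all genes called, which were 35.3% higher and 37.6% lower with LPS and 18.1% higher and 18.4% lower with rHDL. Of regulators that switch on the branching complex (the WASP and WAVE list), 3 of 9 were higher and 2 lower with LPS. Hcls1, a cortactin relative of blood cells, had 0.96 and Was, which activates Arp2/3 in blood cells, had -0.68. With rHDL 0 of 9 were higher and 3 lower, including Hcls1 (-0.55) and Abi3 (-1.71, at most 1.45 CPM). In the serum response factor list 3 of 6 were higher and 2 lower with LPS (Cnn3 4.18 and Tagln2 1.60, both actin-binding proteins), and 1 of 7 was higher and 2 lower with rHDL (Cnn3 -0.79 and Cnn2 -0.76).

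Of other actin binders, 5 of 18 were higher and 10 lower with LPS, and 2 of 17 were higher and 5 lower with rHDL. Coro1c, a coronin, had -2.16 with LPS and 0.76 with rHDL. Tmod3, which caps pointed ends, had 1.25 with LPS, and Capza2, a subunit of capping protein, had 0.86 with LPS and -0.59 with rHDL. Of the myosins, 3 of 10 were higher and 3 lower with LPS, and 2 were higher and 2 lower with rHDL. Myo1g had 2.30 with LPS, Myo1f -1.64 with LPS and 0.95 with rHDL, and Myo1e -0.67 with rHDL. Of adhesion adaptors, 2 of 7 were higher and 3 lower with LPS (Tes 1.27, Fermt3 -0.48), and 1 of 8 was higher and 1 lower with rHDL (Parvb 0.58, Fermt3 -0.43).

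The tubulin list holds tubulins, the proteins of microtubules, and Stmn1 (stathmin), which binds tubulin. Of its 11 genes tested with LPS, 9 were lower and 0 higher (median log2 change -1.25, and -1.96 under library totals), led by Tuba4a (-2.07) and Tubb2a (-1.76), and Stmn1 (-0.56) was not called. With rHDL 9 of 11 were higher and 0 lower (median 1.11), among them Stmn1 (0.81) and led by Tubb2b (3.07) and Tubb2a (1.20). Tubb2a had 41.1, 46.1 and 41.0 CPM in rHDL cells, against 18.3, 19.3 and 18.3 CPM in cells given LPS alone. With loading in rHDL cells 0 of 11 genes of the list were higher and 7 lower, against 18.5% of all genes higher and 17.1% lower. Of genes often used as references, 7 of 11 were higher and 2 lower with LPS under TMM, and 0 were higher and 9 lower under library totals. With rHDL 2 of 11 were higher and 0 lower. Under library totals the LPS counts of the other lists also moved towards lower: WASP and WAVE 1 higher and 8 lower, serum response factor 3 and 3. Other binders had 1 and 16, myosins 2 and 6, and adhesion adaptors 1 and 5. Most genes were lower with LPS under that scaling, 6640 of all 9576, and 1532 were higher.

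**Figure D5:**
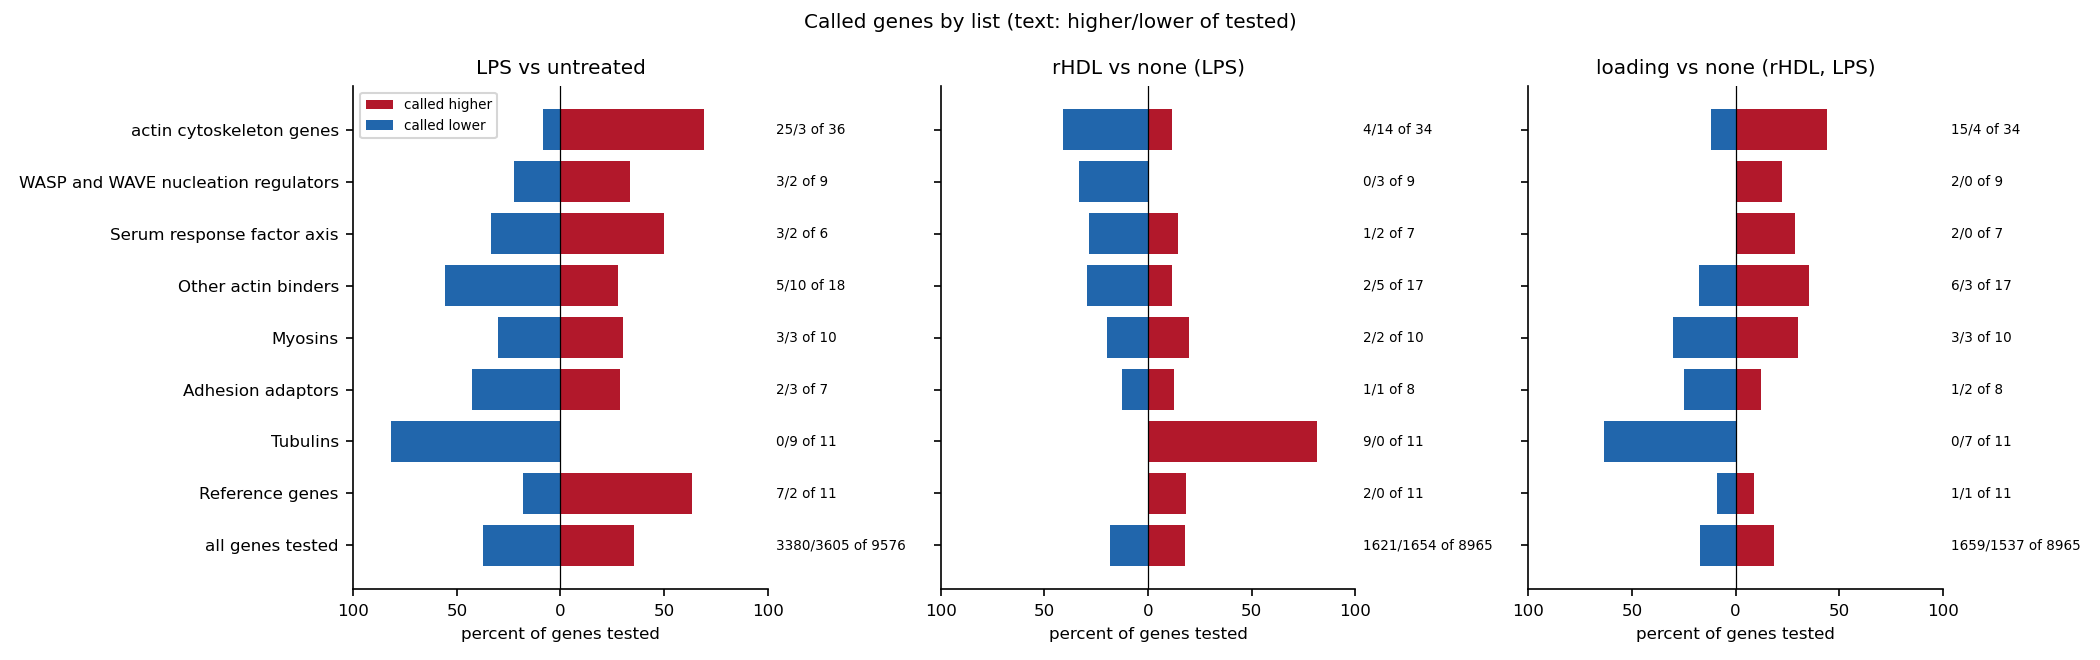
Share of tested genes called higher (red, to the right) and lower (blue, to the left), in percent, for the members, 7 lists of related genes and all genes tested, in 3 comparisons under TMM scaling; the text beside each bar gives higher and lower counts of the number tested. Members are higher in 25 of 36 cases with LPS (11 under library totals), lower in 14 of 34 with rHDL, and higher in 15 of 34 with loading in rHDL cells, while the tubulin list goes the other way in each.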

How the data were processed

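RNA-seq of 18 libraries was used, and nothing in the labels says that replicates were separate cultures or animals, so p-values measure the spread between these libraries, which may be technical. Per the submitters' processing notes, tools included cutadapt, HISAT2, featureCounts of Subread and DESeq2, with genome build mm10. Their versions are not stated. The deposited tables hold raw read counts per transcript row. All 6696 rows without an exon base of their own had 0 counts, so reads on shared bases were left out. The authors' comparison tables hold log2 fold changes and adjusted p-values.

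Rows were summed per symbol. Each table was fitted apart in edgeR 4.0.16 (R 4.3.3) with TMM, filterByExpr (minimum count 10) and quasi-likelihood F tests, leaving 9576 and 8965 genes; the 4 groups of the second table shared 1 fit. Calls used a Benjamini-Hochberg adjusted p under 0.05 over all genes. Each fit was tested on simulated data. Members, lists and ratios were chosen with earlier results of these data known. Members called with an absolute log2 change of at least 0.5, or called for the difference of rHDL effects, are named; of each list, the 2 called genes with the smallest p, for LPS and rHDL. Alternatives were DESeq2 1.42.0, its size factors, library totals only, 2 low-count filters, a minimum of 1.5-fold, the replicate number as a block, 2 groups alone, rows tested singly, leaving out each library and, chosen after seeing the data, genes sharing no exon base. One list of related genes is not reported here.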

Additional observations from a re-analysis of the deposited data

Results flagged for a closer look

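For 12 of 34 members (35.3%) the effect of rHDL differed between loaded and unloaded cells, against 30.2% of all genes. The 2 shares are near each other, so the count itself does not set the members apart from other genes. The difference itself was tested (edgeR interaction, adjusted p under 0.05). Under library totals Wdr1 and Myh9 lost their calls. The difference, after loading minus without loading on the log2 scale, was 1.17 for Actb, 0.45 for Actg1, 0.37 for Wdr1, 0.52 for Actr2, 1.13 for Fscn1, 0.52 for Myh9, 0.60 for Tpm4, 1.13 for Ezr, 0.39 for Marcks and 0.93 for Marcksl1. It was -0.65 for Actn4 and -0.85 for Vim. Of these, Ezr had rHDL effects of opposite sign that were each called, 0.50 after loading and -0.64 without.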

How the results depend on the processing

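Counts of called members depended most on scaling and on a fold minimum. With library totals only, they were 11 higher and 17 lower for LPS, 7 higher and 9 lower for rHDL, and 1 lower for loading. For the difference of rHDL effects 4 were lower. Of all genes, 1532 of 9576 were then higher and 6640 lower for LPS, and 2507 of 8965 higher and 1273 lower for rHDL. For loading 254 of all genes were lower, and for the difference 2124. The LPS changes of Cfl1 (-0.22) and Wdr1 (-0.13) turned negative, and the cause was not tested. With a minimum of 1.5-fold, which asks for larger changes, counts of called members were 14 higher and 0 lower for LPS, and 0 and 2 for rHDL. They were 0 higher for rHDL after loading, 0 and 1 for loading, 3 and 1 for loading with rHDL, and 3 and 0 for the difference. Of all 9576 genes, 1906 were then higher and 2138 lower for LPS. Of all 8965 genes of the second table, 226 were higher and 432 lower for rHDL, and 1 and 4 for rHDL after loading. These all-gene counts were 9 and 23 for loading, 415 and 266 for loading with rHDL, and 395 and 197 for the difference. DESeq2 gave 3 higher members for rHDL after loading, and no low-count filter gave 1 lower member for loading. Genes sharing no exon base gave 1 lower member for the difference, since Actn4 is not among them. Leaving out 1 library gave 1 lower for loading in each case, 2 to 4 higher and 9 to 14 lower for rHDL, and 24 to 26 higher for LPS.

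Replicate numbers were taken to pair libraries only if every same-numbered pair deviated together with a correlation over 0.1, which was not met. The first table had -0.0765 to 0.0741. The second had 13 of 18 pairs over 0.1, with 0.154 to 0.436 for replicate 1, 0.222 to 0.344 for replicate 2 and -0.0302 to 0.177 for replicate 3, and a median of 0.18 against -0.0858 for pairs of unlike number. With the replicate number as a block, loading had 4 lower members (Actr2, Myh9, Msn and Ezr), rHDL after loading had 5 higher (Actg1, Coro1a, Tpm4, Ezr and Marcks; 277 genes of all higher and 209 lower, against 38 and 53 without it) and LPS had 25 higher. Low counts limit Capzb, Tpm3, Zyx, Actr3 and Tmsb10, which were counted on part of their exon bases and had at most 7.28 CPM in any library.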

Other observations

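In the first table, LPS replicate 1 lay at one end of its group for several members. Tmsb4x had 4832 CPM in it against 7679 and 6537 CPM in LPS replicates 2 and 3, and Myl6 213 against 365 and 262 CPM. Actn1 had 1364 against 1073 and 1127 CPM, Myh9 922 against 739 and 811 CPM, and Tln1 1660 against 1402 and 1469 CPM. Without it, 25 members were still called higher and 3 lower, and Tmsb10 and Tln1 were called in addition.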
